A study of Mus musculus with 18 samples.

Results

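The Hox genes encode homeodomain transcription factors and lie in 4 clusters, and here they were taken as every gene in the deposited tables whose symbol was Hoxa, Hoxb, Hoxc or Hoxd followed by a number. This gave 39 genes, of 20115 genes in the table of differentiation stages and 20495 rows in the table of fibroblasts. The Hoxa cluster on chromosome 6 holds 11 of them, the Hoxb cluster on chromosome 11 holds 10, the Hoxc cluster on chromosome 15 holds 9 and the Hoxd cluster on chromosome 2 holds 9. Expression was measured by RNA-seq of total RNA in 18 samples of mouse cells of strain 129. Of these, 10 came from embryonic stem cells carrying GFP at the Brachyury locus and from their progeny in culture, 2 for each of 5 stages: embryonic stem cells (ESC), mesoderm (MES, Bry.GFP+ FLK1-), hemangioblasts (HB, Bry.GFP+ FLK1+), hematopoietic progenitors (HP, CD41+) and macrophages (MAC, CD11b+). The other 8 were single libraries of mouse embryonic fibroblasts (MEFs) of embryonic day 14.5, left untreated (uFIB) or given Scl and Lmo2 (SL), Scl, Fli1, Gata2 and Lmo2 (SFGL) or Fli1, Gata2 and Lmo2 (FGL), each after 12 and after 21 days. Scl is another name of Tal1. The MEFs were wild type or came from iTal1-2A-GFP mice, in which doxycycline turns on a TAL1 transgene through rtTA, and the other factors were delivered by lentivirus. Which of these MEFs went into which library is not given in the sources used here. The stage populations came from 1 line in culture, and a treated MEF library may mix cells that took up the factors with cells that did not.

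Members of a cluster are transcribed in the same direction and are numbered by their order along it, and genes with the same number in different clusters are paralogs. In the embryo, low-numbered (3′) genes are switched on earlier and further forward along the body axis than high-numbered (5′) genes, and cells of the trunk and limb, fibroblasts included, keep the Hox code of their position of origin in adult life. Cdx factors and retinoic acid receptors promote Hox transcription in early mesoderm, Polycomb proteins hold the clusters silent, Mll1 keeps them active, and Meis and Pbx proteins bind DNA together with Hox proteins. In blood, members of the middle and 5′ part of the Hoxa and Hoxb clusters are known from stem and progenitor cells. Of the 39 genes, 8 belong to paralog groups 1 to 3, 15 to groups 4 to 8 and 16 to groups 9 to 13.

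The promoters of 4 members are shown because these genes stand for the patterns of expression described further on: Hoxa7 fell in SL and in SFGL, Hoxb4 was called in neither, and Hoxd1 and Hoxd10 had their highest levels among MEF libraries of day 21. Each sequence is the 250 bases before the transcription start site, from RefSeq promoters on GRCm38.p6: Hoxa7 at chr6:52218574-52218823 on the minus strand, Hoxb4 at chr11:96318017-96318266, Hoxd1 at chr2:74762730-74762979 and Hoxd10 at chr2:74691641-74691890, the last 3 on the plus strand. The capitals mark matches, on either strand, to 7 short motifs searched.
Hoxa7: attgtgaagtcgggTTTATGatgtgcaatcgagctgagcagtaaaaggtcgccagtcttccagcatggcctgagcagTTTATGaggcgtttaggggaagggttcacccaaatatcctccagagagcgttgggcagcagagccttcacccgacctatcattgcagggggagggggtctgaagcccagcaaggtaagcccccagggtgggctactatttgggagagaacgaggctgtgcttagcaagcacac
Hoxb4: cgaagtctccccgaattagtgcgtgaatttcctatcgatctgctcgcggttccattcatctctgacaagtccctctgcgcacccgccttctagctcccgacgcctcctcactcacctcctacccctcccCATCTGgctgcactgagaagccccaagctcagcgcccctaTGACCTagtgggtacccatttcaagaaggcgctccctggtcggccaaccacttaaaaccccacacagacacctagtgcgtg
Hoxd1: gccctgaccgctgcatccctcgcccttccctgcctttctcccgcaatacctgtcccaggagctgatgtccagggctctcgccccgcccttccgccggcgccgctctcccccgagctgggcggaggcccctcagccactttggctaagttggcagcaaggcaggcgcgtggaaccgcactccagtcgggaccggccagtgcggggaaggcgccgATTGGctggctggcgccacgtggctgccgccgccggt
Hoxd10: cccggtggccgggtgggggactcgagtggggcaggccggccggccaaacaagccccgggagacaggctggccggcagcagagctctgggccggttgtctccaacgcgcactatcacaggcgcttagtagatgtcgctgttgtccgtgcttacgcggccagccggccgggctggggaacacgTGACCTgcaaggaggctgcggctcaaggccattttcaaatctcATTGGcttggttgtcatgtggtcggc
In the Hoxa7 promoter the capitals are a pair of TTTATG sequences, a core bound by Cdx proteins, that begin at positions -236 and -173 from the start site. In Hoxb4 they are an E-box, CATCTG, at position -121 and a retinoic acid receptor half-site, TGACCT, at position -81. Hoxd10 holds the same half-site at position -69 and an inverted CCAAT box, ATTGG, at position -26, and Hoxd1 an inverted CCAAT box at position -37. Over the 300-base windows that end 50 bases after the start site, promoters were matched for 22 of the 39 genes, 24 promoters in all. TTTATG or its complement was present in 5 of these 24, against 11.9% of all 32851 promoters of the same length, AGGTCA in 7 against 16.3%, CCAAT in 15 against 37.4%, and the E-box CAGATG in 3 against 17.2%. The Pbx-Hox motif TGATTNAT was present in 2 against 3.22%, the ETS core CCGGAA in 2 against 14.9%, and the Gata motif AGATAA in 0 against 11.2%. The Hox windows held a median of 14.5 CG dinucleotides and all windows a median of 7. These matches describe the letters and are no evidence of binding.

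All values are FPKM, fragments scaled to transcript length and to the aligned reads of the library, which allow levels to be compared between genes. The stage table holds 1 value per stage with the replicates combined, so a stage value has no error and no test, and the depth behind it could not be recovered. The 2 tables were normalized separately, and no level was compared across them. In the MEF table, where the value of 1 read could be read from low genes, the libraries corresponded to between 10600000 and 27900000 reads. The labelled cell types carried their markers, with Pou5f1 highest in ESC, T in MES, Kdr in HB, Itga2b in HP and Csf1r in MAC, though some listed markers were highest one stage later (Mixl1 and Eomes in HB, Tal1 in HP). Levels of the 4 delivered genes went against the FGL label in places: Tal1, which FGL cells were not given, stood at 7.04 FPKM in FGL at day 12 against 0.0414 in uFIB, and Fli1 stood at 3.35 FPKM in FGL at day 21 against 3.02 in uFIB. The 2 FGL libraries are therefore called by their label only.

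During differentiation from ESC to MAC, Hox transcripts were rare. Only 5 of the 39 genes, 12.8%, reached 1 FPKM in any of the 5 stages, against 59.7% of all genes, among them Hoxb2, Hoxd1, Hoxd8 and Hoxd13. A further 18 genes stayed under 0.1 FPKM in all 5 stages, and Hoxa6 and Hoxd12 were listed at 0 throughout. HB had 3 genes at 1 FPKM, ESC, MES and HP had 1 each and MAC had 0, and 28 of the 39 were listed at 0 in MAC. The FPKM of all Hox genes summed to 3.91, 6.42, 11.6, 7.20 and 0.944 in ESC, MES, HB, HP and MAC.

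**Figure D1:**
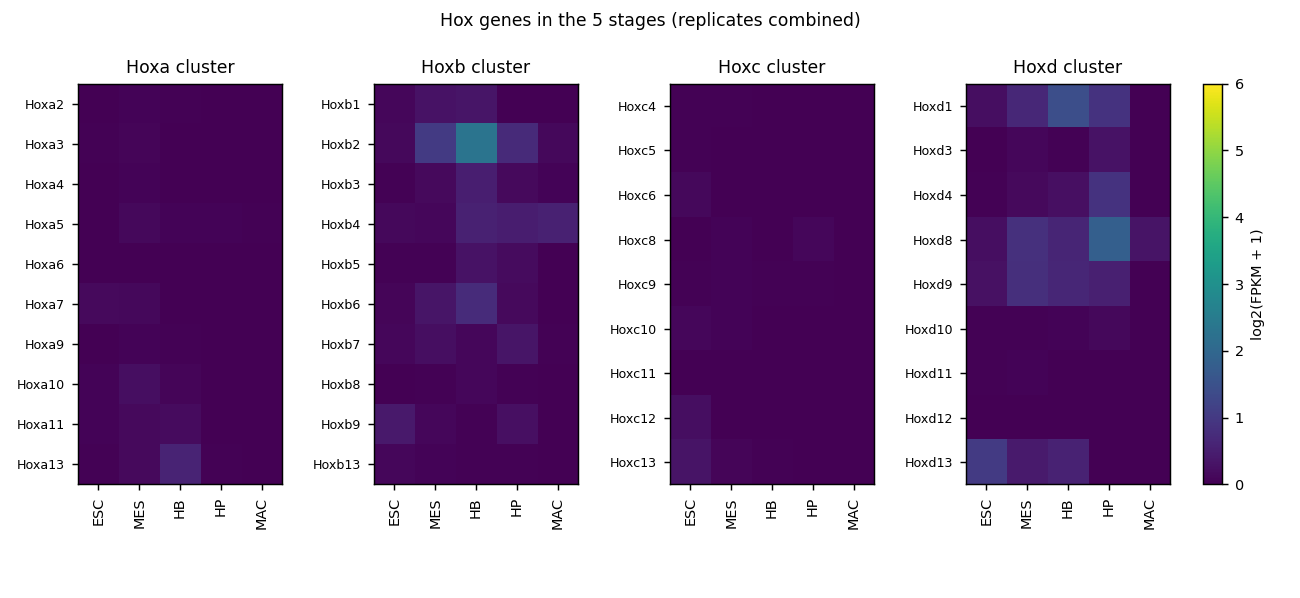
Level of the Hox genes described here, as log2(FPKM + 1) on the colour scale, in the 5 stages (columns; replicates combined by the authors), with 1 panel per cluster and genes ordered by paralog group from the top. Most tiles are dark, the brightest is Hoxb2 in HB at 3.92 FPKM, and the MAC column is nearly empty.

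The 3′ genes accounted for most of the rise to HB. Hoxb2, a paralog group 2 gene of hindbrain segmentation, stood at 0.0860, 1.03, 3.92, 0.629 and 0.0900 FPKM in ESC, MES, HB, HP and MAC. Hoxd1 stood at 0.163, 0.597, 1.71, 0.853 and 0 FPKM in the same order. Both genes were highest in HB and at or near 0 in MAC. Summed over paralog groups 1 to 3, the FPKM was 0.914, 2.76, 7.38, 1.92 and 0.147 in that order.

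Among the middle genes, Hoxd8 stood at 0.160, 0.790, 0.527, 2.54 and 0.255 FPKM in ESC, MES, HB, HP and MAC, so that it was the only member at 1 FPKM in HP. Its cluster neighbour Hoxd4 was also highest in HP, at 0.846 FPKM. The sum over groups 4 to 8 was 0.702, 1.77, 2.32, 4.43 and 0.781 FPKM in the same order, and Hoxd8 gave 2.54 of the HP value. Without Hoxd8 the sum was 0.541, 0.978, 1.79, 1.89 and 0.527 FPKM, and 4 of the 15 genes of these groups were highest in HP. Of 11 listed fibroblast markers found in the stage table, some were highest in HP (Postn at 23.3 FPKM, Col1a2 at 17.6, Col1a1 at 13.1 and Col3a1 at 6.13) and others were not: Pdgfra stood at 16.7 FPKM in HB and 0.494 in HP, and Fbln1 at 8.89 in HB and 0.824 in HP. Dcn and Lum stood at 0.366 and 0.242 FPKM in HP. The markers at 1 FPKM numbered 4 in ESC, HB and HP, 5 in MES and 2 in MAC, and their summed level was 62.5 FPKM in HP and 4.02 to 32.3 FPKM in the other 4 stages. The part of such cells in the Hoxd8 value was not tested. Hoxb4, which is known for expanding blood stem cells when overexpressed, was the only member with its maximum in MAC, at 0.474 FPKM against 0.472 in HB and 0.391 in HP.

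Among the 5′ genes, Hoxd13, a gene of the distal limb and the hindmost trunk, stood at 1.03, 0.350, 0.479, 0.0151 and 0 FPKM in ESC, MES, HB, HP and MAC and was the only member at 1 FPKM in ESC. Over groups 9 to 13 the sum was 2.30, 1.88, 1.92, 0.847 and 0.0161 FPKM in the same order, and without Hoxd13 it was 1.27, 1.53, 1.44, 0.832 and 0.0161 FPKM. The group shared no course: 6 of its genes were highest in ESC, 5 in MES, 3 in HB and 1 in HP, and 1 was at 0 in each stage. By cluster, the Hoxc genes were nearly silent, with sums of 0.647, 0.230, 0.0753, 0.138 and 0 FPKM. The Hoxb sum was highest in HB at 6.16 FPKM, the Hoxa sum in HB at 1.83 FPKM and the Hoxd sum in HP at 5.01 FPKM.

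Changes between neighbouring stages among the 5 were counted where a gene differed by at least 2-fold on log2(FPKM + 0.001) and reached 1 FPKM in 1 stage of the pair. This is a count without replicates and not the study's test, and the hemogenic endothelium that lies between HB and HP was not used here. From ESC to MES, 1 Hox gene was higher (Hoxb2) and 1 lower (Hoxd13), against 5.95% of all genes higher and 6.34% lower. From MES to HB, 2 were higher (Hoxb2 and Hoxd1) and 0 lower, against 2.06% higher and 3.2% lower. From HB to HP, 1 was higher (Hoxd8) and 2 lower (Hoxb2 among them), against 6.42% higher and 6.69% lower, and Hoxd1 just missed the limit at a ratio of 0.5004. From HP to MAC, 0 were higher and 1 lower (Hoxd8), against 20.5% higher and 9.11% lower. These last shares depend on scaling. Of all genes, 4126 were higher and 1832 lower, but 2415 higher and 3250 lower with upper-quartile scaling, where the Hox counts did not change. Several of these values lie close to 1 FPKM, so the counts move with the limit: with at least 0.5 FPKM in place of 1, the genes lower from HP to MAC were 4 (Hoxb2, Hoxd1, Hoxd4 and Hoxd8).

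Other genes of the pathway followed the stages at much higher levels. Cdx2, which acts upstream of trunk Hox genes, stood at 1.87, 18.3, 5.32, 0.532 and 0.00944 FPKM in ESC, MES, HB, HP and MAC, while Cdx1 and Cdx4 stayed under 1 FPKM in all 5 stages. Evx1, the homeobox gene that follows Hoxa13 at the 5′ end of the Hoxa cluster, 52.6 kb away, stood at 0.910, 20.8, 21.4, 0.129 and 0 FPKM. In MES and HB, Evx1 was thus higher than every Hox gene, including those of the Hoxa cluster that it adjoins. Among the cofactors, Meis1 stood at 0.680, 0.256, 0.289, 13.4 and 3.34 FPKM in the same order, so that it had its maximum in HP.

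In MEFs the family was widely expressed. Of the 39 genes, 31 reached 1 FPKM in uFIB at day 12 and 31 in uFIB at day 21, against 55.8% and 56.1% of all genes. In SL and SFGL at day 12, 23 and 22 reached it, against 57.0% and 56.0% of all genes. At day 21, 30 in SL and 26 in SFGL reached it, against 57.1% and 56.4% of all genes, and 22 reached it in all 8 libraries. At the other end, 7 genes stayed under 1 FPKM in all 8 libraries, among them Hoxa13, Hoxb1, Hoxb13, Hoxd1, Hoxd12 and Hoxd13. Hoxc6 was the highest member in every library. Reads at some loci may be divided among neighbours, since the tables give Hoxa3, Hoxa4, Hoxa5 and Hoxa6 1 shared locus (chromosome 6, 52169062 to 52213067) and Hoxd3 and Hoxd4 another (chromosome 2, 74711993 to 74748271). Exons of 10 Hox genes overlap exons of a gene on the other strand in the GENCODE annotation, Hoxa3, Hoxa7, Hoxa11, Hoxb2 and Hoxb3 among them, and whether the counting used strand is not given in the sources used here.

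**Figure D2:**
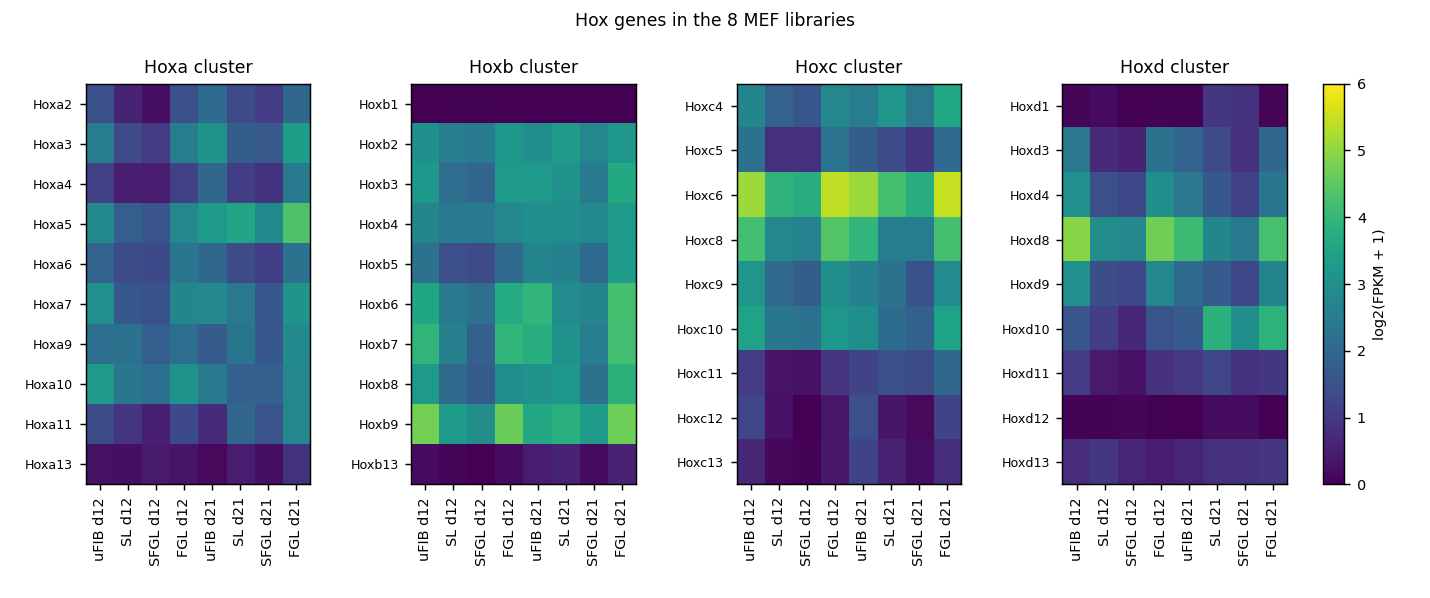
Level of the Hox genes described here, as log2(FPKM + 1) on the colour scale, in the 8 MEF libraries (columns; d12 and d21 are day 12 and day 21), with 1 panel per cluster and genes ordered by paralog group from the top. The SL and SFGL columns are darker than the uFIB and FGL columns at day 12, Hoxc6 is the brightest gene in every library, and Hoxd10 is bright in 3 libraries of day 21.

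The summed FPKM of the 39 genes was 257, 98.9, 81.2 and 253 in the uFIB, SL, SFGL and FGL libraries of day 12, and 215, 167, 111 and 321 in those of day 21. SL was thus at 0.385 of uFIB at day 12 and at 0.777 at day 21, SFGL at 0.317 and 0.516, and FGL at 0.987 and 1.49. The 4 SL and SFGL sums lay below the 4 uFIB and FGL sums, and the gap was smaller at day 21. In bulk RNA, fewer cells that carry a transcript and less of it per cell cannot be told apart.

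Treatments were compared with limma over all genes whose mean reached 1 FPKM, in an additive model of treatment and day. With 1 library per treatment and day, its error is the disagreement between the 2 days, so a p-value covers that spread and not the spread between cultures. This left 29 of the 39 Hox genes and 11991 genes in all. Differences are given on log2(FPKM + 1), a scale that makes changes of low genes look smaller, and a gene was called at an adjusted p of at most 0.05 over all genes tested. SL and SFGL were set against the same 2 uFIB libraries, so their comparisons are not independent of each other.

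In SL against uFIB, 17 of the 29 tested Hox genes fell and 0 rose, where 27.1% of all genes fell and 25.4% rose. The median difference over the 29 was -0.75, against -0.03 over all genes, and 26 of the 29 were negative, against 51.9% of all genes. By cluster, 6 of 9 tested Hoxa genes, 5 of 7 Hoxc and 4 of 5 Hoxd genes were called, while the 2 of 8 Hoxb genes called were no larger a share than that of all genes. By position, 3 of 5 genes of groups 1 to 3 fell, 10 of 15 of groups 4 to 8 and 4 of 9 of groups 9 to 13. A fit without 1 library of SL or uFIB has 1 left in that group, and such fits called fewer of all genes, so their Hox counts are not given. The fall rests more on the day 12 libraries. The median over the 29 was -1.10 at day 12 and -0.40 at day 21, against -0.02 and -0.04 over all genes. On both days 20 of the 29 were negative, against 44.2% of all genes. Hoxd10 (-0.52 and 2.11) and Hoxa11 (-0.48 and 1.24) changed sign between the days. The genes Hoxc6, Hoxc8, Hoxd8, Hoxb6 and Hoxa3 were called in all 14 alternative analyses.

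In SFGL against uFIB, 20 of the 29 fell and 0 rose, where 30.8% of all genes fell and 28% rose. The median difference was -1.11 over the 29 and -0.03 over all genes, and 28 of the 29 were negative, against 51.7% of all genes. Called genes were 6 of 9 in Hoxa, 5 of 8 in Hoxb, 5 of 7 in Hoxc and 4 of 5 in Hoxd, and by position 4 of 5 in groups 1 to 3, 12 of 15 in groups 4 to 8 and 4 of 9 in groups 9 to 13. Here too, fits without 1 library of SFGL or uFIB called fewer of all genes, and their Hox counts are not given. The median over the 29 was -1.29 at day 12 and -0.84 at day 21, against -0.02 and -0.04 over all genes. On both days 26 of the 29 were negative, against 44.9% of all genes. Hoxd10 (-0.95 and 1.21) and Hoxa11 (-0.85 and 0.79) changed sign between the days. Without the 2 FGL libraries, whose label was in doubt, the counts were 16 in SL and 20 in SFGL. In SFGL, 10 genes were called in all 14 alternatives: Hoxa3, Hoxa7, Hoxb6, Hoxb7, Hoxc6, Hoxc8, Hoxc9, Hoxc10, Hoxd4 and Hoxd8.

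The next values are FPKM in uFIB, SL, SFGL and FGL, in that order, for the 12 members with the highest mean and the 12 other members called. Hoxc6 stood at 33.8, 14.03, 12.3 and 41.7 at day 12 and at 33.1, 17.8, 12.4 and 43.4 at day 21. For Hoxd8 the values were 29.7, 6.85, 6.08 and 24.9 at day 12 and 16.2, 5.76, 4.34 and 18.1 at day 21. Hoxc8 had 17.4, 5.90, 5.29 and 20.2 at day 12 and 14.6, 4.82, 4.85 and 17.7 at day 21. In these 3 genes the SL and SFGL libraries lay below all uFIB and FGL libraries on both days, which their calls largely fix. The share of all genes separated in this way was not counted, here or for the genes below. Hoxc6 and Hoxc8 are trunk genes of the mid-thoracic region. At this pseudocount Hoxd8 had the largest fall among the tested members in both comparisons, while with a pseudocount of 0.1 Hoxd3 fell more in SFGL (-2.23 against -2.07). Hoxd8 had differences of -1.66 (SE 0.16, limma adjusted p = 0.00144) in SL and -1.90 (SE 0.16, adjusted p = 0.000711) in SFGL. The differences of Hoxc8 were -1.42 (SE 0.096, adjusted p = 0.00105) and -1.48 (SE 0.096, adjusted p = 0.000513). Those of Hoxc6 were -1.03 (SE 0.12, limma adjusted p = 0.00198) and -1.36 (SE 0.12, adjusted p = 0.000742).

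The Hoxb genes of groups 6 and 7 behaved alike. Hoxb6 stood at 10.8, 4.41, 3.62 and 12.0 at day 12 and at 14.4, 6.45, 5.62 and 17.8 at day 21. Hoxb7 had 14.2, 5.09, 2.58 and 14.4 at day 12 and 12.8, 7.53, 4.91 and 17.6 at day 21. Both were called in both comparisons, which largely fixes that they were below uFIB and FGL in all 4 SL and SFGL libraries. Differences in SFGL were -1.29 (SE 0.097, limma adjusted p = 0.000596) for Hoxb6 and -1.66 (SE 0.21, adjusted p = 0.00192) for Hoxb7. The other high Hoxb genes separated the treatments less well. Hoxb9, the second highest member, had 26.0, 8.57, 6.77 and 24.3 at day 12 and 11.4, 13.1, 8.95 and 24.4 at day 21. Its uFIB value at day 21 was far below that at day 12 and below SL of the same day, and it was called in neither comparison (limma adjusted p = 0.220 in SL and 0.0685 in SFGL).

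Hoxb8 had 8.32, 3.22, 2.34 and 6.85 at day 12 and 7.37, 8.14, 3.81 and 13.4 at day 21. Hoxb3 had 8.14, 3.40, 2.87 and 8.66 at day 12 and 8.37, 7.32, 4.53 and 11.6 at day 21. Hoxb5 had 3.68, 1.76, 1.62 and 3.21 at day 12 and 5.49, 5.27, 3.25 and 8.91 at day 21. These 3 genes fell in SFGL (limma adjusted p = 0.0229, 0.0105 and 0.0357) and were not called in SL, where the day 21 library lay near uFIB. Hoxb2 and Hoxb4 were called in neither comparison. Hoxb2 had 7.10, 4.71, 4.46 and 7.97 at day 12 and 6.71, 8.78, 5.99 and 7.84 at day 21. Hoxb4 had 5.59, 4.48, 4.68 and 5.90 at day 12 and 6.92, 6.66, 6.29 and 8.47 at day 21, and its fitted difference was -0.16 (SE 0.11) in SL and -0.17 (SE 0.11) in SFGL.

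In the Hoxa cluster the called genes were Hoxa2, Hoxa3, Hoxa4, Hoxa6, Hoxa7 and Hoxa10 in both comparisons. Hoxa3 had 4.76, 1.57, 1.11 and 4.83 at day 12 and 7.28, 2.42, 2.20 and 9.11 at day 21. Hoxa7, the gene with a pair of Cdx cores in its promoter, had 7.16, 2.16, 1.85 and 5.74 at day 12 and 6.08, 4.33, 2.10 and 7.62 at day 21. Hoxa10, known from myeloid cells and the uterus, had 8.36, 4.11, 3.57 and 7.44 at day 12 and 4.49, 2.57, 2.59 and 5.87 at day 21. In all 3, the SL and SFGL libraries lay below uFIB and FGL, which their calls largely fix, with the day 21 SL value of Hoxa7 closest to uFIB. Hoxa3 had differences of -1.22 (SE 0.14, limma adjusted p = 0.00181) in SL and -1.41 (SE 0.14, adjusted p = 0.000904) in SFGL. Lower in the cluster's range were Hoxa2, with 1.81, 0.497, 0.196 and 1.82 at day 12 and 3.26, 1.65, 1.15 and 3.09 at day 21, and Hoxa4, with 1.28, 0.423, 0.400 and 1.26 at day 12 and 2.97, 1.16, 0.852 and 4.64 at day 21. Hoxa6 had 2.78, 1.63, 1.57 and 4.08 at day 12 and 3.11, 1.65, 1.15 and 3.78 at day 21. Hoxa5 was an exception among the high members: it had 6.37, 2.44, 2.01 and 5.85 at day 12 but 8.31, 10.5, 6.28 and 19.2 at day 21, and was not called (limma adjusted p = 0.369 in SL and 0.0859 in SFGL). Hoxa9, whose overexpression is common in acute leukemias, ranged over the libraries from 2.15 FPKM in SFGL at day 21 to 6.25 in FGL at day 21 and was not called in either (adjusted p = 0.330 and 0.471).

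In the Hoxc cluster, Hoxc5, Hoxc6, Hoxc8, Hoxc9 and Hoxc10 fell in both comparisons. Hoxc10 had 10.1, 4.09, 3.83 and 7.99 at day 12 and 6.89, 3.32, 2.64 and 10.2 at day 21. Hoxc9 had 7.72, 3.23, 2.42 and 6.95 at day 12 and 5.07, 3.80, 1.86 and 6.39 at day 21. Hoxc5 had 3.80, 0.788, 0.819 and 3.91 at day 12 and 2.43, 1.60, 0.920 and 3.28 at day 21. The 3 genes were lower in the SL and SFGL libraries than in the others, which their calls largely fix. The genes at the 2 ends of the run, Hoxc4 and Hoxc11, were not called, and each was higher in SL than in uFIB at day 21, Hoxc4 at 7.69 against 4.83 FPKM and Hoxc11 at 1.78 against 1.35 FPKM. Hoxc12 and Hoxc13, the last genes of the cluster, had means under 1 FPKM and were tested only without the filter on low values, where both were called lower in SL and in SFGL.

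In the Hoxd cluster, Hoxd3, Hoxd4, Hoxd8 and Hoxd9 fell in both comparisons. Hoxd4 had 7.19, 1.76, 1.47 and 6.89 at day 12 and 4.20, 2.14, 1.29 and 4.07 at day 21. Hoxd9 had 7.23, 1.73, 1.45 and 5.88 at day 12 and 3.28, 2.37, 1.41 and 5.55 at day 21. Hoxd3 had 4.29, 0.647, 0.517 and 3.82 at day 12 and 2.73, 1.63, 0.809 and 2.998 at day 21. All 3 were lowest in the SFGL and SL libraries, which their calls largely fix. Their SL values at day 21 lay closer to uFIB than those at day 12. The Hoxd9 call in SL (limma adjusted p = 0.0407) held in 5 of 14 alternatives.

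**Figure D3:**
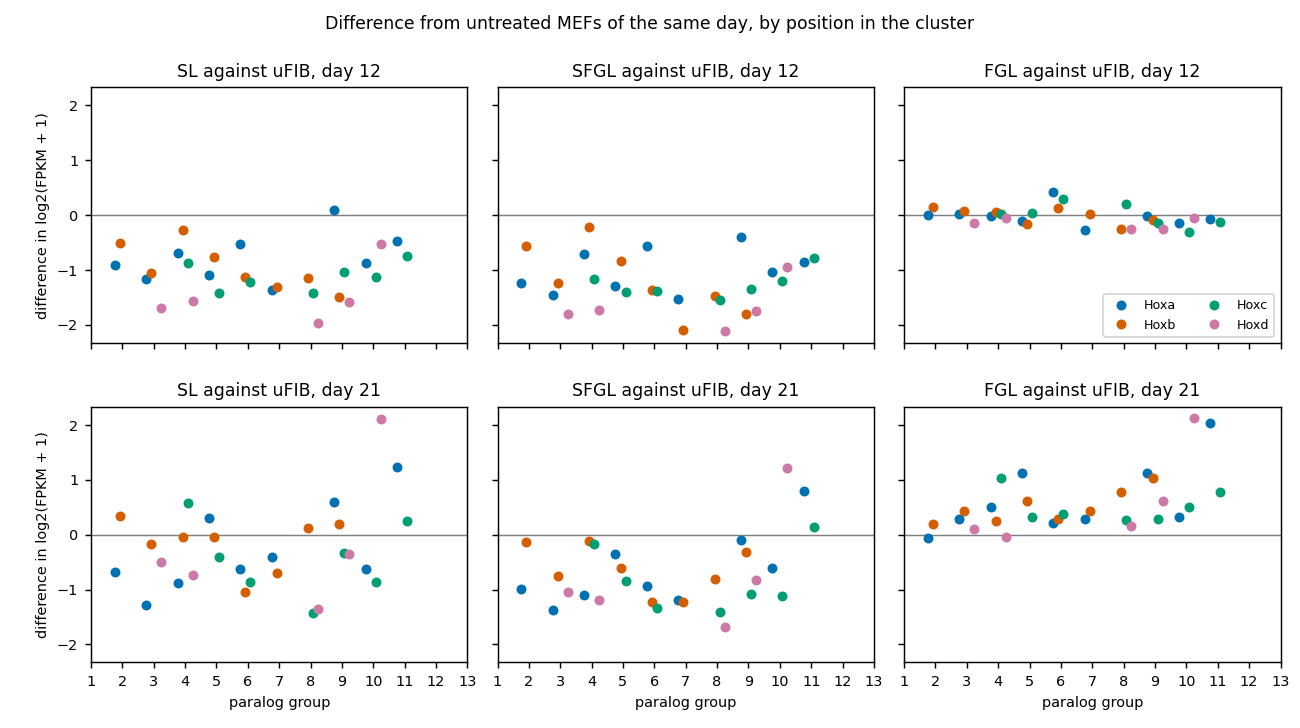
Difference in log2(FPKM + 1) from uFIB of the same day (vertical axis) against paralog group (horizontal axis) for the 29 Hox genes tested, by treatment (columns) and day (rows), with 1 point per gene coloured by cluster and no error, since each value compares 2 libraries. At day 12 the SL and SFGL points lie below 0 at nearly all positions, while at day 21 Hoxd10 and Hoxa11 lie well above 0 in SL, SFGL and FGL.

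Some members outside the rule for named genes are given because of their values: Hoxa9, Hoxc4 and Hoxc11 above, and Hoxd10, Hoxa11 and Hoxd1 here, were picked out after those values were seen. Hoxd10, a gene of the hindlimb and lumbar trunk, stood in uFIB, SL, SFGL and FGL at 2.06, 1.13, 0.585 and 1.96 FPKM at day 12 and at 2.37, 13.6, 6.81 and 13.6 FPKM at day 21. It was thus below uFIB in SL and SFGL at day 12 and above it in all 3 treatments at day 21. The estimated reads behind these values were 60, 51, 19 and 63 at day 12 and 98, 242, 155 and 234 at day 21, so counting error is small beside the change. Over both days, its fitted difference was 0.79 (SE 0.63) in SL, 0.13 (SE 0.63) in SFGL and 1.04 (SE 0.63) in FGL, and it was called in none of them, with limma adjusted p = 0.329, 0.867 and 0.931. Hoxa11 showed a like course, with 1.61, 0.873, 0.448 and 1.49 FPKM at day 12 and 0.674, 2.95, 1.90 and 5.84 FPKM at day 21. It was also called in no treatment, and its exons overlap Hoxa11os on the other strand. Summed over groups 9 to 13, SL stood at 0.414 of uFIB at day 12 and at 1.2004 at day 21, against 0.365 and 0.641 for groups 4 to 8. The sums of groups 9 to 13 at day 21 were 51.6 FPKM in SL and 43.0 FPKM in uFIB. Hoxd10 alone gave 13.6 and 2.37 FPKM of them, so the ratio above 1 rests on that gene. Whether a treatment acted differently on the 2 days could not be tested with 1 library of each.

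The 3′ gene of the same cluster, Hoxd1, was near 0 in all but 2 libraries. It stood at 0.0659, 0.126, 0 and 0.0295 FPKM in uFIB, SL, SFGL and FGL at day 12 and at 0.0230, 0.923, 0.850 and 0.0561 FPKM at day 21. These values correspond to an estimated 17 reads in SL at day 21 (exact Poisson 95% interval 9.90 to 27.2) and 20 in SFGL at day 21 (12.2 to 30.9), against 1 read in uFIB (0.0253 to 5.57) and 1 in FGL of that day. The intervals of the SL and SFGL libraries did not meet those of the other 2, which covers counting error only. Hoxd1 did not pass the filter on low values, and with 1 library each the 4 libraries of day 21 were compared, not the treatments. Among the stages, Hoxd1 was highest in HB.

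**Figure D4:**
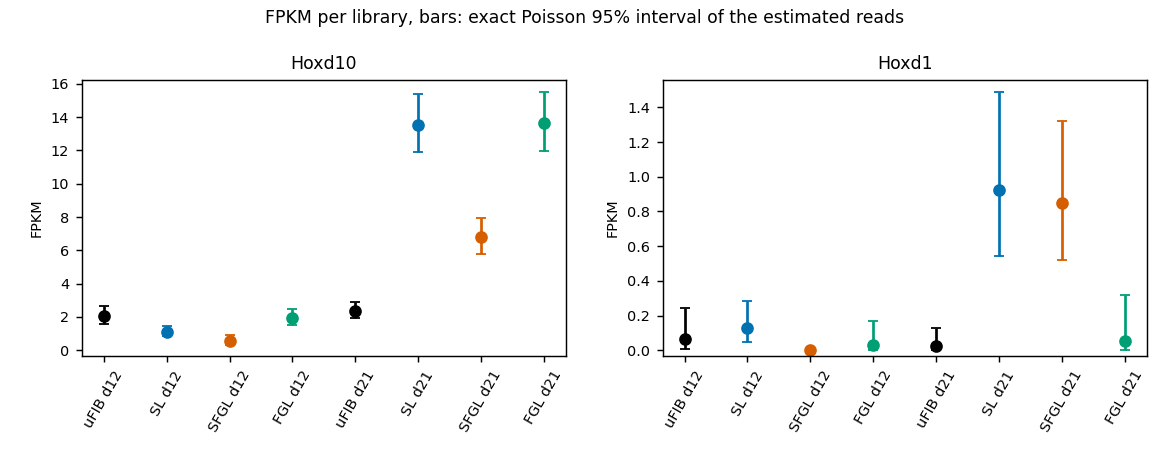
FPKM (vertical axes, linear, different scales) of Hoxd10 and Hoxd1 in each of the 8 MEF libraries (horizontal axes; d12 and d21 are day 12 and day 21), coloured by treatment, with bars for the exact Poisson 95% interval of the estimated reads and no bar where the value was 0. Hoxd10 stands between 6.81 and 13.6 FPKM in the 3 treated libraries of day 21 and at most at 2.37 FPKM elsewhere, and Hoxd1 is above 0.8 FPKM only in SL and SFGL of day 21.

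In FGL, the Hox levels of day 12 lay near those of uFIB. No Hox gene was called in FGL against uFIB, by limma, where 0% of all genes were called lower and 0.0167% higher, and at an unadjusted p under 0.05 there was 1 Hox gene (Hoxc6, 0.34 higher, SE 0.12) among 286 genes lower and 180 higher in all. The median difference of the 29 was 0.22, -0.05 at day 12 and 0.38 at day 21, and 11 of the 29 were higher than uFIB on both days. At day 21, 2 of the 29 were below uFIB. In SFGL against SL, which the labels set apart by Fli1 and Gata2, 0 Hox genes were called, where 0% of all genes were called lower and 0% higher. Fli1 itself was no higher in SFGL (41.2 and 27.8 FPKM at day 12 and day 21) than in SL (46.7 and 34.4 FPKM), while Gata2 was higher (110.04 and 132 against 68.8 and 62.6 FPKM). At an unadjusted p under 0.05, 3 Hox genes were lower in SFGL than in SL (Hoxb7, Hoxc6 and Hoxc9), among 657 genes lower and 400 higher in all. All 29 differences were negative, against 57.5% of all genes, with a median of -0.32 against -0.03, and ranged from -0.66 to -0.01. They come from the same libraries, so the 29 signs are not independent. The day term was called for 3 Hox genes, Hoxb6, Hoxa2 and Hoxa3, all higher at day 21, where 1.43% of all genes were called lower and 1.19% higher. Those 3 calls had limma adjusted p = 0.0397, 0.0461 and 0.0493. None of the 3 held with any 1 library left out, where fewer of all genes were called for the day term. Without either uFIB library, Hoxc11, Hoxd10 and Hoxa5 were called instead. Without the 2 FGL libraries, 0 Hox genes and 9 of all genes were called.

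Markers of fibroblasts, like the Hox genes, were lower in SL and SFGL than in uFIB. All 12 listed markers reached 1 FPKM in all 8 libraries, and their summed level was 6335 to 8314 FPKM in uFIB, 1702 to 2754 in SL, 1353 to 2240 in SFGL and 6454 to 7123 in FGL. In limma, 11 of the 12 fell in SL and 12 of 12 in SFGL, with median differences of -1.85 and -2.08, larger in size than the medians of the Hox genes. Of the listed HP markers, Itga2b stood at 1.003 to 1.10 FPKM in uFIB, 49.7 to 53.6 in SL and 108 to 117 in SFGL. In FGL, it stood at 8.83 FPKM at day 12 and 0.805 at day 21. Gata1 and Gfi1b stood at 3.69 and 3.75 FPKM in FGL at day 12 and at 0 and 0.0613 at day 21. Gata1, Gfi1b, Ptprc and Emr1 were at or near 0 in uFIB and passed the filter only through the treated libraries, so their calls as higher were fixed by it. The macrophage markers Csf1r, Fcgr1 and Mrc1 did not pass it. The HP marker Runx1 and the macrophage marker Cd68 were above 1 FPKM in uFIB and were called higher in both comparisons. Runx1 rose by 0.64 in SL and 0.81 in SFGL, and Cd68 by 2.30 and 2.58. The part of these cells in the fall of Hox genes was not tested. Fibroblast markers were lower at day 21 than at day 12 in SL (1702 against 2754 FPKM), where the Hox sum was higher (167 against 98.9 FPKM). The same held in SFGL (markers 1353 against 2240, Hox 111 against 81.2 FPKM) and FGL (6454 against 7123, 321 against 253 FPKM). In uFIB both sums were lower at day 21 (6335 against 8314, 215 against 257 FPKM).

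Genes that act with or on the Hox clusters changed in both directions. Of the 9 listed cofactors, 8 were tested, and 4 fell and 1 rose in SL, while 5 fell and 1 rose in SFGL. Meis1, Meis2 and Meis3 were among those that fell in both comparisons and Pknox2 in SFGL, and the gene that rose was Pbx2, by 1.02 (SE 0.16, limma adjusted p = 0.00451) in SL and by 0.84 (SE 0.16, adjusted p = 0.00684) in SFGL. Of the listed regulators, 13 were tested, with 2 lower and 4 higher in SL and 3 lower and 3 higher in SFGL. Among all genes, 27.1% were lower and 25.4% higher in SL, and 30.8% lower and 28% higher in SFGL. Suz12 and Ezh2, subunits of the Polycomb complex that methylates H3K27, rose by 1.40 and 0.998 in SL and by 1.55 and 0.89 in SFGL, as did the H3K27 demethylase Kdm6a, by 0.66 and 0.56. Eed, listed with them, was not called in either comparison (0.27 and 0.23). Bmi1, a subunit of the other Polycomb complex, had differences of -1.16 in SL and -1.31 in SFGL, and the retinoic acid receptor Rarg of -0.54 and -0.76, and both fell in both comparisons. Cdx1, Cdx2 and Cdx4 reached 1 FPKM in no MEF library, and the highest value among them was 0.241 FPKM.

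Of 16 neighbours outside the clusters, 2 on each side of each cluster, 11 were tested, with 4 lower and 4 higher in SL and 2 lower and 3 higher in SFGL, beside the 27.1% and 30.8% of all genes that were lower. Skap2, 143 kb from the Hoxa cluster, rose by 0.92 (SE 0.27, limma adjusted p = 0.0362) in SL and by 0.93 (SE 0.27, adjusted p = 0.0314) in SFGL. Snx10, the next gene on that side at 565 kb, fell, with differences of -0.61 (SE 0.13, limma adjusted p = 0.0112) and -0.63 (SE 0.13, adjusted p = 0.00842). Hnrnpa3, 894 kb from the Hoxd cluster, rose by 0.88 and 0.93. Calcoco1, 199 kb from the Hoxc cluster, fell, with differences of -0.62 and -0.79. The homeobox genes Evx1 and Evx2, which adjoin the Hoxa and Hoxd clusters, stayed under 0.1 FPKM in all 8 libraries.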

How the data were processed

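RNA-seq was read on a SOLiD instrument in 50-base single-end reads from ribosome-depleted total RNA. For the stages, the study's methods name SHRiMP for alignment to mm10 (GRCm38), removal of duplicates with Picard, unique reads and cuffdiff of Cufflinks, and the submitters' processing notes name Cufflinks for MES, HB, HP and MAC, Bowtie and HOMER for ESC, and TopHat and Cufflinks for MEFs. Versions are not given in the sources used here. The authors deposited FPKM values for both sets, per transcription start site and stage with the replicates combined, and per gene and library for the MEFs. Here the values of the start sites were summed per gene. In the stage table, 1 per-sample column (HE) was not used, since no sample here is mapped to it.

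Groups were taken from the labels. MEF values were tested as log2(FPKM + 1) with limma 3.58.1 in R 4.3.3, for genes whose mean over the 8 libraries reached 1 FPKM, in an additive model of treatment and day (3 residual degrees of freedom) with a variance prior that follows the mean, two-sided, with Benjamini-Hochberg adjustment over all genes tested and a threshold of 0.05. Nothing says that the 2 replicates of a stage or the libraries of a treatment came from separate cultures. The script was tested on simulated data. Stage values had no test. Levels of Hox genes were given in every stage for members at 1 FPKM or more in a stage, and in every MEF library for the 12 highest members and every other member called in SL or SFGL. Members, gene lists and tests were chosen with earlier results of these data known.

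Reads behind MEF values were estimated from 2651 single-transcript genes, as multiples of the value of 1 read, over transcript length less 200 bases. In the 8 libraries, 83.3% to 89.2% of values near 1 read lay within 10% of it. Intervals and estimates cover counting error only. Alternatives were another pseudocount, no filter, upper-quartile scaling, no variance trend, no day term, each library left out in turn and no FGL libraries. Promoters were taken from RefSeq (GRCm38.p6), and overlaps from GENCODE. Figures were drawn with matplotlib 3.10.9, and tables handled with pandas 2.3.3 and SciPy 1.17.1. Some genes of the family and of the lists are not reported here by name, but are counted in the numbers and sums.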

Additional observations from a re-analysis of the deposited data

Results flagged for a closer look

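In 3 cases a Hox gene among the highest members differed from uFIB in opposite directions on the 2 days under 1 treatment, by at least 0.3 on log2(FPKM + 1) on each day. Hoxb2 in SL was lower than uFIB at day 12 (difference -0.50) and higher at day 21 (0.34). Hoxa5 in SL was lower at day 12 (-1.10) and higher at day 21 (0.31). Hoxc10 in FGL was lower at day 12 (-0.30) and higher at day 21 (0.51). Each value compares 1 library with 1 library, and the difference between the days was not tested.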

How the results depend on the processing

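No paired analysis was possible because the replicates of a stage share 1 column and the MEF labels carry no replicate number. The day term of the MEF model already matches libraries by day, and without it 14 Hox genes were called in SL and 15 in SFGL. Over all genes, 5012 and 5946 were called without the day term, also fewer than with it. Over the analyses that left out 1 library each, the number of Hox genes called ranged from 5 to 19 in SL against uFIB, from 13 to 24 in SFGL against uFIB and from 0 to 3 for day 21 against day 12. The lowest counts came without SL at day 12 (5) and uFIB at day 12 (7) for SL, and without SFGL at day 21 (13) for SFGL. The day count was also 0 without the filter on low values and 0 without the 2 FGL libraries. With a pseudocount of 1 in the stages, Hox genes higher from ESC to MES were 0 and lower 0, those higher from MES to HB were 1, and those lower from HB to HP were 1. With a limit of 0.5 FPKM, 4 were higher from ESC to MES, 4 higher from MES to HB, 2 higher and 4 lower from HB to HP, and 4 lower from HP to MAC, and the genes at or above the limit were 2 in ESC, 5 in MES, 7 in HB and 4 in HP. The causes of these shifts were not tested, apart from the limit, which by construction admits lower genes. The other 151 recomputed counts and totals equalled the main value or stayed within 1.5 times of it, and many of them were 0 in both. Of the differences of single named genes, 138 counted as unchanged and 78 moved, the latter where 1 day was taken by itself. With a pseudocount of 0.1, unchanged meant the same side of the threshold. With 1 day by itself, it meant a value within 1 fitted standard deviation of the main one, with no threshold. A small difference of a gene not called could thus change sign and count as unchanged. With a pseudocount of 0.1 some of the 138 grew by over 1.5 times: in SL Hoxa2 (-1.31) and Hoxa4 (-1.35), and in SFGL Hoxa2 (-2.06), Hoxa4 (-1.58), Hoxc5 (-1.70) and Hoxd3 (-2.23). Precision is set by 1 library per treatment and day and, for genes under 1 FPKM, by a few reads.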
